A study of Mus musculus with 2 samples.

Results

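The 5 miRNA genes Mir532, Mir188, Mir362, Mir501 and Mir500 lie together in an intron of Clcn5 on the mouse X chromosome, and their levels were measured in fetal liver. The rule that took them used their names in the gene annotation and their position inside Clcn5 on its strand, not their counts. They were chosen with earlier results of these data known. The members make up 5 of 1973 gene rows in each deposited table. No other row lies within Clcn5 on that strand. The samples were whole livers of B6NCrl mouse embryos at embryonic day 16.5, profiled by microRNA sequencing of total RNA. There was 1 group of 2 libraries, labelled as biological replicates, and male and female embryos were pooled for each, 41 of them in replicate 2 and an unstated number in replicate 1. No embryo carried a labelled mutation or treatment. Comparisons are therefore among the members within a library and between the 2 pools, not between conditions.

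A miRNA gene is transcribed into a longer RNA, a hairpin is cut from it, and the arms of the hairpin become mature miRNAs that repress messenger RNAs they pair with. Pairing rests mainly on the seed, bases 2 to 8 of the mature miRNA, so arms with the same seed share many targets. Several hairpins in an intron of a protein-coding gene can come from the transcript of that host. Clcn5 encodes a chloride and proton exchanger of endosomes, best known from the proximal tubule of the kidney and from Dent disease. Of the members, miR-188 is known from bone marrow stromal cells of ageing mice, miR-501 from mouse muscle stem cells, and miR-500 as a miRNA of fetal liver and of human liver cancer.

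Clcn5 spans 7153810 to 7319358 on the minus strand of X in mm10, and the hairpins occupy 10.8 kb of it, from 7237683 to 7248497. All 5 are intronic. They sit in an intron of 103.6 kb that is the same in 3 of the 5 annotated Clcn5 transcripts, intron 3 of Clcn5-202 and Clcn5-204 and intron 2 of Clcn5-203. The other 2 transcripts begin downstream of the hairpins and so do not contain them. In the direction of transcription the order is Mir532, Mir188, Mir362, Mir501, Mir500. Mir532 begins 70861 bases after the first base of Clcn5, Mir188 follows after a gap of 345 bases, Mir362 after a further 5942, Mir501 after 630 and Mir500 after 3468.

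The RefSeq hairpins (build GRCm38.p6, minus strand) are shown because the counts are per miRNA gene. Their sequences and positions are the same in GENCODE M21. The intervals of GENCODE M4, the annotation named for the deposited counts, were not compared. Capitals mark the mature arms listed in the RefSeq table used, reading 5′ to 3′. For Mir532 that table lists only 1 arm, so its other arm is left in lower case.
Mir532 (ENSMUSG00000070139.1, chrX:7248402-7248497): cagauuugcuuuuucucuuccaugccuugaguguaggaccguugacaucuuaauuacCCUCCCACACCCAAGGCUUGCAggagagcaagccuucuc
Mir188 (ENSMUSG00000065398.1, chrX:7247989-7248056): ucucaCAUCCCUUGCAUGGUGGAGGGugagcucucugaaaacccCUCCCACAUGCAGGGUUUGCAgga
Mir362 (ENSMUSG00000070100.1, chrX:7241982-7242046): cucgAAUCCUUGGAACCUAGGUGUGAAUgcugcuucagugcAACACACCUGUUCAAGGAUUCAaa
Mir501 (ENSMUSG00000076251.1, chrX:7241243-7241351): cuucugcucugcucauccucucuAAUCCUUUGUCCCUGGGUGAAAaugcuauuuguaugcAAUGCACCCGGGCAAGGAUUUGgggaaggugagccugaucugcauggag
Mir500 (ENSMUSG00000070108.2, chrX:7237683-7237774): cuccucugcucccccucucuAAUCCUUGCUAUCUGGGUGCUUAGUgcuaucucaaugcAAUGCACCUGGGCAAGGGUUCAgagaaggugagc
The hairpins are 65 to 109 bases long with 46.2% to 55.9% G and C. Their predicted folding energies lie between -46.9 kcal/mol for Mir501 and -28.5 kcal/mol for Mir362, which is also the shortest.

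The mature arms of the 3 hairpins farthest along the transcript resemble each other, and their seeds, in capitals, show where they overlap.
miR-362-5p: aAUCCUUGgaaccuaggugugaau
miR-500-5p: aAUCCUUGcuaucugggugcuuagu
miR-501-5p: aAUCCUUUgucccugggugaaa
miR-362-3p: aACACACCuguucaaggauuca
miR-500-3p: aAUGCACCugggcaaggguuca
miR-501-3p: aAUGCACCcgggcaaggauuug
Counted from the 5′ end, miR-362-5p and miR-500-5p have the same seed, and miR-501-5p departs from that of miR-362-5p at its last base (G8U, miR-362-5p first). The 3p arms of Mir501 and Mir500 also have a seed in common and match at 18 of 22 bases, the differences of miR-501-3p against miR-500-3p being C9U, A18G, U21C and G22A. The 3p arm of Mir362 matches that of Mir500 at 17 of 22 bases, but C3U and A4G, with the base of miR-362-3p first, fall inside the seed.

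The 3 arms compared from the pair at the start of the cluster have other seeds. The arm miR-532-5p of the most abundant member was not in the RefSeq table and was not analysed here. Comparisons of seeds and arms therefore leave it out.
miR-188-5p: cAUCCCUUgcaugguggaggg
miR-188-3p: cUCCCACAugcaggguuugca
miR-532-3p: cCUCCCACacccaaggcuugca
The seeds of miR-188-3p and miR-532-3p overlap with a shift of 1 base. That of miR-188-5p differs from the seed of miR-501-5p at 1 base (C6U, miR-188-5p first). Among 1738 mature sequences in the RefSeq table, 1 outside the cluster had the seed of miR-362-3p. It is miR-329-3p of chromosome 12, whose gene Mir329 had 571 CPM in replicate 1 against 465 CPM in replicate 2 (CPM, the counts after scaling every library to the same sense-strand total). The seed of miR-188-5p is also that of miR-7061-3p, whose gene was not analysed here. Outside the cluster no other mature sequence of that table had the seed of any of these 9 arms. No member shared an 18-base word with another listed hairpin, and the closest window in any other listed hairpin differed from an arm at 4 or more bases.

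The cluster held 16332 counts in replicate 1 and 12930 in replicate 2, of 5930074 and 5102289 sense-strand counts. This was 0.275% of the miRNA counts in replicate 1 and 0.253% in replicate 2, a mean of 2644 ± 156 CPM (SD, n = 2). The X chromosome as a whole gave 6.10% and 5.87% of the counts from 120 rows, and the cluster held 4.51% and 4.32% of those. All 5 members reached 1 CPM or more in both libraries, as 397 of the 1973 rows did, while 1265 rows had no count. The members had no count in the column taken as the opposite strand in either library. The counts do not separate the 2 arms of a hairpin. In whole liver, fewer cells of a type and less RNA per cell cannot be told apart.

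Mir532, the first hairpin of the cluster, was the most abundant member, with 8071 counts (1361 CPM) in replicate 1 and 6043 counts (1184 CPM) in replicate 2. Mir188 had 5008 counts (845 CPM) and 4353 counts (853 CPM) in the same order, the closest agreement of any member. Mir501 had 2049 counts (346 CPM) in replicate 1 and 1528 (299 CPM) in replicate 2. These 3 genes were clearly separated, since no value of 1 fell within the range of another. Mir500 had 866 counts (146 CPM) in replicate 1 and 642 (126 CPM) in replicate 2. Mir362 was lowest, with 338 counts (57.0 CPM) in replicate 1 and 364 (71.3 CPM) in replicate 2. Their ranges did not overlap either, so the order Mir532, Mir188, Mir501, Mir500, Mir362 was the same in both libraries.

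**Figure D1:**
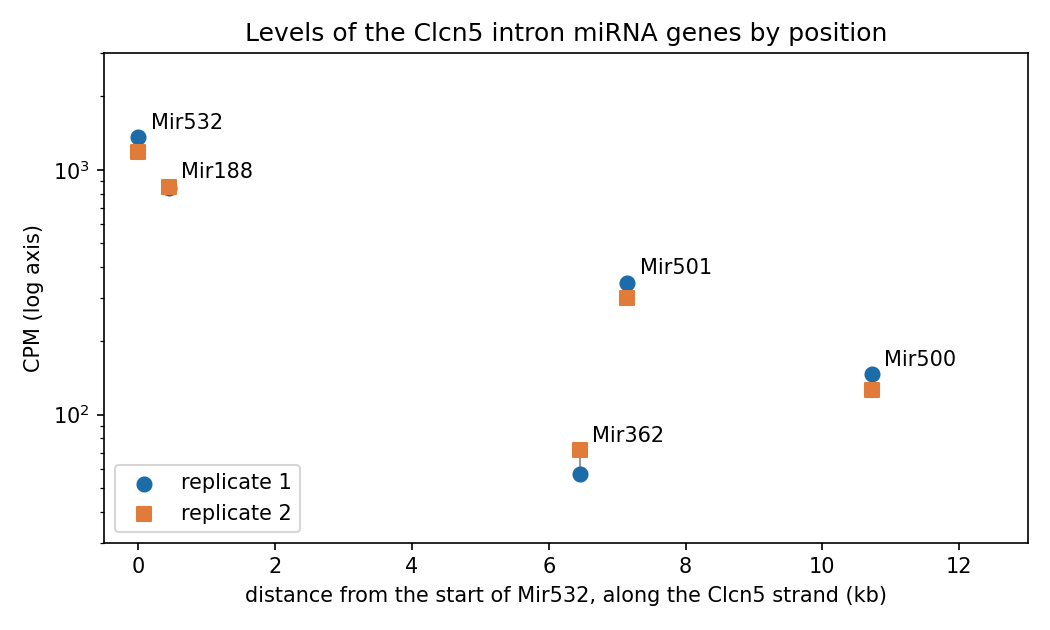
Level of each member in CPM (log axis) against the distance of its hairpin from the start of Mir532 along the Clcn5 strand (kb), with circles for replicate 1 and squares for replicate 2. Mir532 and Mir188 stand highest, at 1361 and 845 CPM in replicate 1, and Mir362 lies below both Mir501 and Mir500, which follow it.

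Among all rows Mir532 ranked 78 by mean level and Mir188 91, followed by Mir501 at 129, Mir500 at 169 and Mir362 at 203. Among X-linked rows Mir532 and Mir188 were 8 and 9. Mean levels were 1273 ± 125 CPM for Mir532, 849 ± 6.11 for Mir188, 322 ± 32.6 for Mir501, 136 ± 14.3 for Mir500 and 64.2 ± 10.1 for Mir362 (SD, n = 2 each). Of the 10 genes directly above or below a member in this ranking, 9 had a range that overlapped that of the member, so single ranks are not resolved. The exception was Mir342, hosted by Evl, at 825 and 789 CPM, just below Mir188. Directly above and below Mir532 in rank were Mir185, hosted by Tango2, at 1543 CPM in replicate 1 against 1176 CPM in replicate 2, and Mir298 at 1380 and 1143 CPM. Mir196b, hosted by Hoxa9, and Mir221, also on the X chromosome, stood on either side of Mir501 at means of 330 ± 48.8 and 308 ± 13.6 CPM. Mir500 lay between Mir92-2 (138 ± 22.1 CPM) and Mir1306 of Dgcr8 (133 ± 36.3 CPM), and Mir362 between Mir34c (65.3 ± 4.11 CPM) and Mir30c-1 of Nfyc (62.3 ± 2.23 CPM).

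Level did not simply fall along the transcript. The first pair of hairpins held most of the counts: Mir532 made up 49.4% of the cluster in replicate 1 (48.6% to 50.2%, 95% exact Clopper-Pearson interval), against 46.7% (45.9% to 47.6%) in replicate 2. Mir188 made up 30.7% (30.0% to 31.4%) in replicate 1 and 33.7% (32.9% to 34.5%) in replicate 2. For both genes the intervals of the 2 libraries did not overlap, Mir532 taking more in replicate 1 and Mir188 less. Mir501 held 12.5% (12.04% to 13.06%) in replicate 1 and 11.8% (11.3% to 12.4%) in replicate 2, and Mir500 5.30% (4.96% to 5.66%) and 4.97% (4.60% to 5.35%). Those intervals overlapped. Mir362, in the middle by position but last in level, held 2.07% (1.86% to 2.30%) in replicate 1 and 2.82% (2.54% to 3.11%) in replicate 2, without overlap. These intervals hold the counting error of reads and nothing else. Any use of molecular identifiers was not given, so PCR copies of a molecule may have been counted again.

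Ratios between members do not depend on how the libraries are scaled. Mir532, Mir501 and Mir500 kept nearly the same proportions in both pools. They were grouped after these ratios were seen, so their likeness is a description and not a test. The level of Mir532 was 3.94 times that of Mir501 in replicate 1, against 3.95 times in replicate 2, and that of Mir501 was 2.37 times that of Mir500, which has the same 3p seed, against 2.38 times in replicate 2. The log2 ratio of Mir532 over Mir501 differed between replicate 1 and replicate 2 by -0.0057 with a counting SE of 0.055, and that of Mir501 over Mir500 by -0.0083 with an SE of 0.090.

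The other members departed from these proportions, both in the same direction. Mir532 stood 1.61-fold above its close neighbour Mir188 in replicate 1, against 1.39-fold in replicate 2, a difference of 0.22 in the log2 ratio (counting SE 0.039). Mir188 stood 2.44-fold above Mir501 in replicate 1, against 2.85-fold in replicate 2. Mir501 stood 6.05-fold above Mir362, its neighbour at 630 bases, in replicate 1, against 4.19-fold in replicate 2, a difference of 0.53 (SE 0.12). Mir500 stood 2.56-fold above Mir362, which has the same 5p seed, in replicate 1, against 1.76-fold in replicate 2. Relative to Mir501, both Mir188 and Mir362 were thus lower in replicate 1, and Mir362 was lower relative to Mir188 as well. From highest to lowest the cluster spanned 23.8-fold in replicate 1 and 16.6-fold in replicate 2, a mean log2 range of 4.31 ± 0.37 (SD, n = 2). These are ratios of counts of whole hairpin rows, not of molecules.

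**Figure D2:**
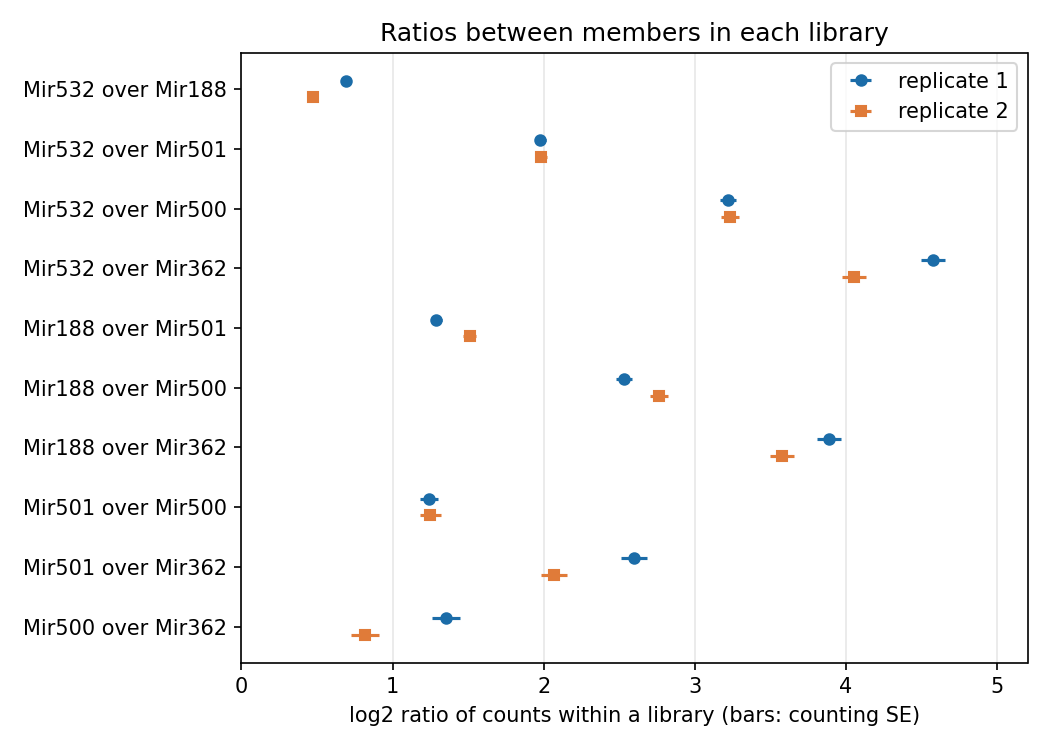
Log2 ratio of counts for each of the 10 pairs of members within a library, with circles for replicate 1, squares for replicate 2 and bars for the counting SE. The libraries coincide for the pairs among Mir532, Mir501 and Mir500 and stand apart for every pair with Mir188 or Mir362, most for Mir500 over Mir362 at 1.36 in replicate 1 and 0.82 in replicate 2.

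Against the library totals, Mir532 was higher in replicate 1 than in replicate 2 by 1.15-fold (log2 0.20, counting SE 0.025; exact binomial test over all genes, Benjamini-Hochberg adjusted p = 1.34e-15). Mir501 was higher by 1.15-fold (log2 0.21, SE 0.049; exact adjusted p = 7.55e-05) and Mir500 by 1.16-fold (log2 0.21, SE 0.075; exact adjusted p = 0.0117). Mir362 was lower in replicate 1, its level in replicate 2 being 1.25-fold higher (log2 -0.32, SE 0.11; exact adjusted p = 0.0083). Mir188 did not pass (log2 -0.015, SE 0.030; exact adjusted p = 0.759). With TMM or DESeq2 scaling, which lowers every log2 ratio by 0.076 or 0.074, Mir500 no longer passed (exact adjusted p = 0.132 and 0.126), and Mir188 passed as lower in replicate 1 (0.0064 and 0.0086).

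The test compares these 2 libraries of 1 group by counting error alone, and calls are common in it. Of 440 genes tested, 196 passed (44.5%), with 119 higher in replicate 1 (27.0%) and 77 lower (17.5%). With TMM or DESeq2 scaling the split was 98 higher and 96 lower. Beside that background, 4 of the 5 members passed, 3 higher and 1 lower. Among the 121 other genes with levels between those of Mir362 and Mir532, 66.1% passed. The median log2 ratio of the members was 0.20, that of all tested genes 0.08, and their median absolute ratios were 0.21 and 0.27. The ratio of Mir532 was exceeded in size by 281 of the 440 genes (63.9%), and that of Mir362, the largest of the members, by 194 (44.1%). The biological coefficient of variation common to the 440 genes was 22.9% by edgeR. Members passed the test with differences of the size usual between these pools.

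**Figure D3:**
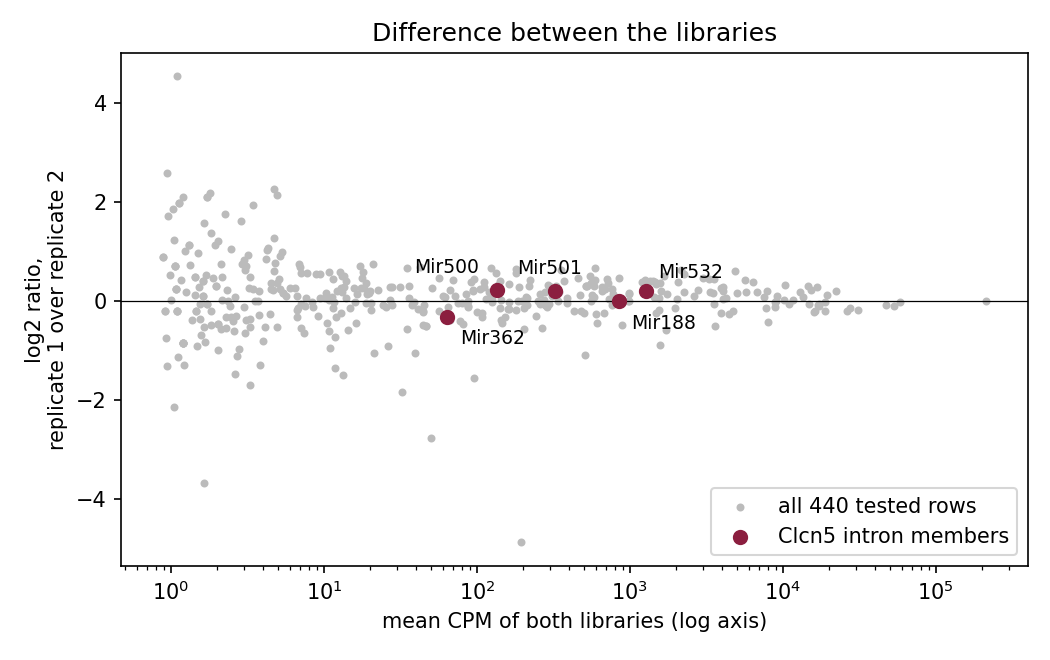
Log2 ratio of replicate 1 over replicate 2 against mean CPM (log axis) for the 440 tested genes in grey, with the 5 members in red and named. The members lie between -0.32 and 0.21, inside the spread of genes of like level.

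The pools also differed in markers of cell types and of other tissues. The hepatocyte list (Mir122, Mir192, Mir148a and Mir194-2) summed to 219881 CPM in replicate 1 and 221989 in replicate 2, with all 4 genes detected. Nearly all of this sum was Mir122 (213274 and 214555 CPM). Mir192 had 3575 and 4258 CPM and Mir194-2 1462 and 1654 CPM, while Mir148a had 1570 and 1522 CPM. The intestine-enriched Mir215 had 12.6 CPM in replicate 1, against 376 CPM in replicate 2. The 5 epithelial and biliary genes summed to 4266 and 6376 CPM, each of them lower in replicate 1. The 4 pancreas genes summed to 1395 and 2105 CPM, nearly all of it Mir375 (1378 and 2086 CPM), while Mir216b had 7.08 and 3.53 CPM. The 4 muscle genes summed to 1300 and 2257 CPM, mainly Mir206 (1104 and 2050 CPM), while Mir499 had 145 and 143 CPM and Mir133b 14.8 and 12.2 CPM. Erythroid genes (3) summed to 24071 and 27152 CPM, led by Mir451a and Mir144, while Mir486 had 727 and 459 CPM. Mesenchymal genes (3) summed to 16068 and 18143 CPM, led by Mir143, while Mir214 had 816 and 602 CPM. Leukocyte genes (4) summed to 17906 and 18645 CPM, and endothelial Mir126a had 45470 and 48546 CPM. Neural genes summed to 114 and 134 CPM over the 3 with a row. Mir137 had 25.6 and 53.1 CPM, while Mir132 had 88.4 and 80.7 CPM and Mir124a-1 was at 0 in both. The part of these differences in the ratios of the members was not tested.

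The Clcn5 cluster was set beside a pair of other miRNA clusters of the X chromosome. The Mir322 cluster, with Mir503 and Mir351, held 23594 CPM in replicate 1 against 22053 CPM in replicate 2 over 7 rows, and the Mir106a cluster, a relative of miR-17-92, held 516 and 501 CPM over 6 rows. At 2754 CPM in replicate 1 and 2534 in replicate 2, the Clcn5 cluster stood between them, and its range did not overlap with either. Its leading gene Mir532 took 49.4% and 46.7% of the cluster, whereas Mir322 took 86.2% and 85.4% of its own and Mir106a 26.1% and 29.8% of its own. In replicate 1 the highest member of the Mir106a cluster was Mir92-2, with 29.8%. The Clcn5 cluster spanned 23.8-fold and 16.6-fold from highest to lowest member, the Mir322 cluster 2436-fold and 2208-fold, and the Mir106a cluster 29.9-fold and 33.9-fold. The lowest members of those clusters, Mir450-2 and Mir19b-2, share 15.4% and 11.9% of their 18-base words with other listed genes. Mir450-1 shares 13.5%, Mir92-2 6.76% and Mir450b 3.08%, whereas no Clcn5 member shares any. Reads that map to several places are not in gene counts, so the spans of these 2 clusters may be too wide. Their sums may be too low and the shares of their members may be off, so the order of the clusters holds for the counts as given. In each cluster the log2 ratios between the libraries had both signs, from -0.32 to 0.21 in the Clcn5 cluster, from -0.20 to 0.12 in the Mir322 cluster and from -0.25 to 0.33 in the Mir106a cluster. No test of a difference between the clusters was made.

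**Figure D4:**
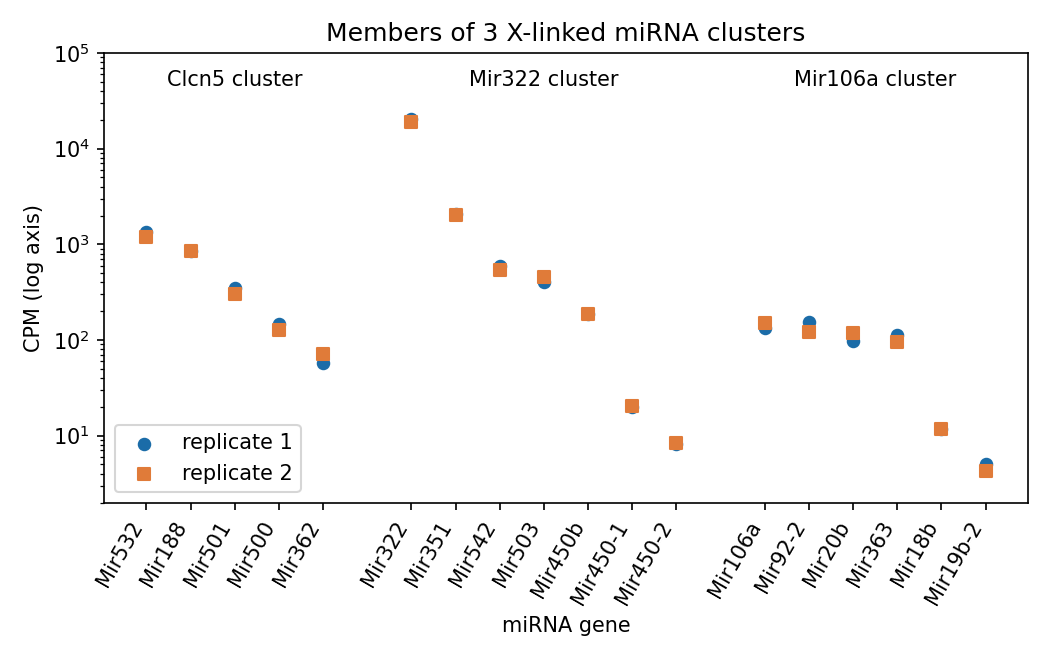
Level in CPM (log axis) of each member of the Clcn5, Mir322 and Mir106a clusters, ordered by mean level, with circles for replicate 1 and squares for replicate 2. The 5 Clcn5 members lie between 57.0 and 1361 CPM, below Mir322 at 20331 CPM in replicate 1 and without members at the low level of Mir19b-2 (5.06 CPM).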

How the data were processed

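Raw counts per miRNA gene were deposited for each library as a table with no header, with assembly mm10 and GENCODE annotation M4 named in the text deposited with it. The aligner, the counting program and any use of molecular identifiers were not given in the sources used here. Each of 1973 gene rows held 3 counts, the first the sum of the other 2. No header names them, so of the 2 strand columns the one that summed higher in each library was taken as the sense strand and used. The 4 tally rows were left out of totals; multimapping reads, 28.1% and 28.2% of reads in replicates 1 and 2, are not in gene counts. Names and positions came from GENCODE M21 on the same assembly by versionless identifier (1894 rows matched), mature and hairpin sequences from RefSeq (5 of 5 members matched). CPM used the sum of sense-strand counts as the total, so that 1 count equals 0.169 CPM in replicate 1 and 0.196 in replicate 2. Genes with 10 or more counts were compared between the libraries by a two-sided exact conditional binomial test with Benjamini-Hochberg adjustment (threshold 0.05, SciPy 1.17.1). It was run on simulated counts, with differences planted in some genes and counting error as the only noise. Such counts cannot show how the test behaves with spread between pools. A quasi-likelihood test needs a contrast and was not fitted; 2 libraries allow no exact permutation p below 0.5. Log2 ratios add 0.5 to each count. Dispersion and TMM came from edgeR 4.0.16, size factors from DESeq2 1.42.0, folding energies from ViennaRNA 2.7.2. The text names all members, the genes next to each in level, genes with a seed in common, fixed marker lists and the other X-linked clusters. Members and lists were chosen with earlier results of these data known.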

Additional observations from a re-analysis of the deposited data

How the results depend on the processing

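The order of the 5 members was the same in each library alone, and with a pseudocount of 0 or 1 the ratios between neighbours in that order moved by less than the spread between the libraries. Counts irrespective of strand leave shares and ratios as they are by construction, since no member has a count on the other strand. The cluster mean was 2428 CPM with counts irrespective of strand and 3364 CPM with Mir122 left out of the total, because those totals are larger and smaller. The log2 ratio of the whole cluster, replicate 1 over replicate 2, was 0.12 as reported, 0.044 with TMM and 0.047 with DESeq2 size factors. Log2 ratios of single members kept their sign under these scalings, other totals and other count minimums. No member shares 18-base words, so leaving such members out changed nothing. No paired analysis was possible because there is 1 group. The lowest member had 338 counts in replicate 1, so its ratios carry the widest counting error.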
